A study of Trametes versicolor with 3 samples.

Results

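The enzymes described here are the antioxidant defence genes of Trametes versicolor, a white-rot fungus, measured by RNA sequencing in mycelium from 3 media. They are gene models whose protein description or first KEGG entry names a catalase, superoxide dismutase, glutathione peroxidase, peroxiredoxin, thioredoxin, glutaredoxin, glutathione reductase or cytochrome c peroxidase, unless the description names a glutathione transferase, a lignin peroxidase or ligninase, or a manganese peroxidase. The rule used names only and no measured value. It found 47 of the 11480 gene models with a read in any library, 18 of them through both names, 17 through KEGG alone and 12 through the description alone. The exclusion removed 6 further gene models.

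The fungus, obtained from a Chinese industrial culture collection, was sampled on day 9, when the mat had reached 4 cm, from PDA (potato dextrose agar, a rich fungal medium), from a medium with glucose as carbon source, or from a poplar medium. The growth protocol in the labels gives 25 °C and PDA for every sample, so the media were taken from the source names, and what else the glucose and poplar media contained is not given there. There is 1 library per medium. The spread between replicate cultures is therefore unknown, and no test between media was possible. The libraries held 2.85 M uniquely assigned reads on PDA, 2.68 M on glucose and 2.80 M on poplar. Of 35 gene models described as hydrophobins, the small coat proteins of hyphae, 32 had reads on PDA, 33 on glucose and 32 on poplar. Most of all gene models also had reads, 10871, 10979 and 11101 in the same order, so these counts say little about the tissue. In RPKM (defined below) the hydrophobins summed to 32433 on PDA, 19907 on glucose and 17535 on poplar.

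Wood decay by white-rot fungi uses hydrogen peroxide outside the cell, while respiration produces superoxide inside it. Superoxide dismutases convert superoxide to hydrogen peroxide, and catalases split hydrogen peroxide to water and oxygen. Peroxiredoxins, glutathione peroxidases and cytochrome c peroxidase reduce peroxides with electrons from thioredoxin, glutathione or cytochrome c, and thioredoxin reductase and glutathione reductase return the thiol carriers to their reduced form with NADPH.

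The names gathered by the rule do not all fit that description. The descriptions of 7 members name another kind of peroxidase, and these entered only because KEGG lists them first as cytochrome c peroxidase or peroxiredoxin. They comprise a manganase peroxidase (so spelled, which is why the exclusion missed it), 2 manganese-dependent peroxidases, a manganese-repressed peroxidase, 1 described only as peroxidase, and 2 chloroperoxidase-like genes. A further 9 members are described as thioredoxin-like but are named glutathione S-transferase by KEGG; transferases attach glutathione to reactive compounds and share the thioredoxin fold. These 16 genes are called below the other peroxidases and the KEGG transferases, and the remaining 31 the named antioxidant enzymes. This division was made after the annotations and values had been seen. The label of the 31 follows the rule's names and not a known activity. It takes in Trave1_150138, Trave1_164012 and Trave1_46398, which are thioredoxin-like without a KEGG name. It also takes in Trave1_46763, described as a DUF862-domain protein and named a thioredoxin by KEGG alone. Among all 11480 gene models, 12 carried the gene ontology term for antioxidant activity, and 7 of them were members: 4 superoxide dismutases, the thioredoxin reductase and the 2 manganese-dependent peroxidases.

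Levels are given in RPKM, the deposited read count scaled to gene model length and to the library total. Of the 47 members, 46 had a read in each library (Trave1_49367 had none on PDA and glucose, and Trave1_47104 none on poplar), and 37 had at least 10 reads in every library. The median level over the members was 71.1 RPKM on PDA, 66.4 on glucose and 61.7 on poplar, against 14.0, 14.4 and 15.4 RPKM over all gene models. Together the members took 0.860% of the reads on PDA (exact 95% interval 0.850 to 0.871), 1.15% on glucose (1.14 to 1.16) and 1.24% on poplar (1.23 to 1.26). This interval and all those below cover counting error only. In RPKM the members summed to 10699.6 on PDA, 12351 on glucose and 13165 on poplar.

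**Figure D1:**
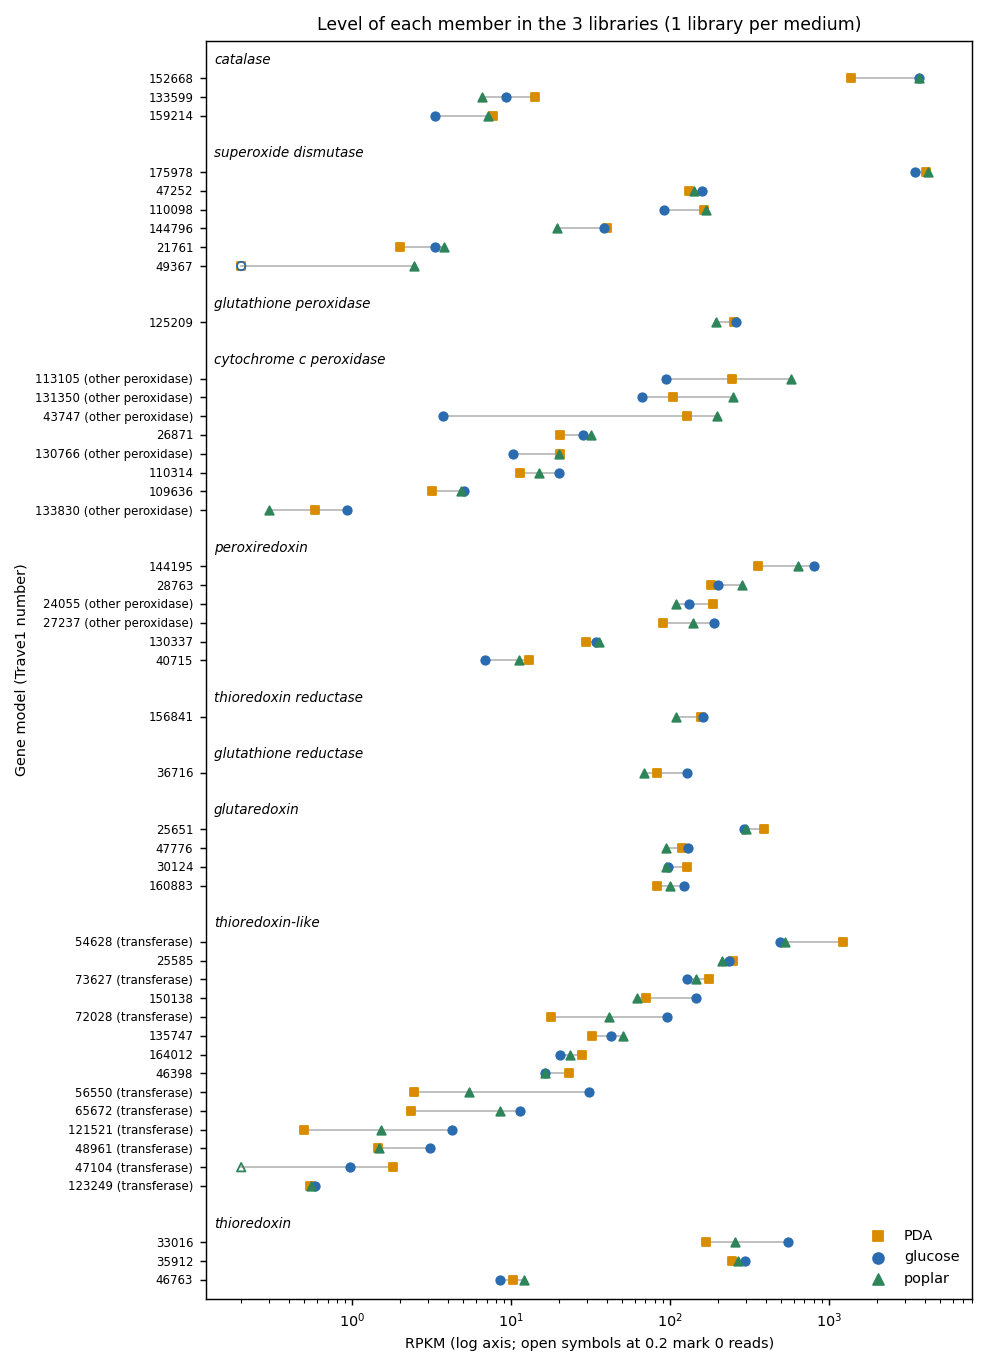
Level of each of the 47 members in RPKM on a log axis, with 1 symbol per medium (square PDA, circle glucose, triangle poplar), 1 library each and no error bars; members are grouped by family and named by their gene model number. Catalase Trave1_152668 and superoxide dismutase Trave1_175978 stand above all other members, and the catalase is the lower of the pair on PDA.

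A pair of genes supplied most of that sum. Manganese superoxide dismutase Trave1_175978 and catalase Trave1_152668 together made up 51.1% of the members' summed RPKM on PDA, 58.1% on glucose and 60.1% on poplar. Without them the other 45 members summed to 5229, 5171 and 5258 RPKM in the same order. The nearly constant remainder is a sum of families that moved in different directions, as the plot of summed levels shows. Within it the other peroxidases summed to 775 RPKM on PDA, 495 on glucose and 1292 on poplar, and the KEGG transferases to 1439, 763 and 734. Both of these sums fell from PDA to glucose, while other families rose. The peroxiredoxins outside these groups went from 580 to 1054 RPKM, and the thioredoxins from 424 to 852. From glucose to poplar the other peroxidases rose, while the same peroxiredoxins fell to 970 RPKM and the thioredoxins to 535. Because the remainder was nearly constant, the net differences between the totals lay mostly in the abundant pair. Between poplar and glucose, however, the pair was not alone in this. There the log2 ratio of summed RPKM went from 0.09 to 0.0060 without the other peroxidases and KEGG transferases. Without the pair it went to 0.024.

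**Figure D2:**
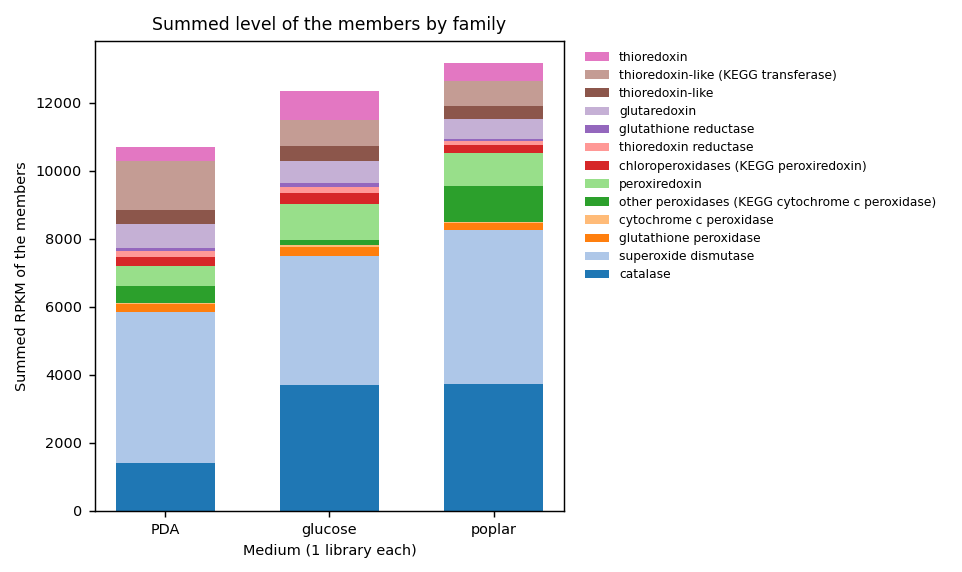
Summed RPKM of the members in each medium, stacked by family, with the other peroxidases, the chloroperoxidases and the KEGG transferases as segments of their own (1 library per medium, no error bars). The catalase segment is 1407 RPKM on PDA against 3692 on glucose and 3724 on poplar.

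Catalase Trave1_152668 measured 1385 RPKM on PDA (6053 reads), 3679.6 on glucose (15107 reads) and 3709.7 on poplar (15923 reads). PDA was low, and glucose and poplar lay close together. It ranked 96 among all gene models by RPKM on PDA, 25 on glucose and 30 on poplar. Relative to PDA its level was 2.66-fold higher on glucose (95% counting interval of the ratio 2.58 to 2.74) and 2.68-fold higher on poplar (2.60 to 2.76). The ratio of poplar to glucose was 1.01 (0.986 to 1.03) in RPKM, but it became 0.948 after median-of-ratios or TMM scaling, the other direction and outside that interval. Which of these media was higher thus depends on the scaling. In bulk libraries such as these, fewer cells of a kind and less RNA per cell cannot be told apart. Its gene model is 1533 bases of coding sequence.

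The remaining catalases were minor, together 1.55% or less of the family's summed RPKM in each library. Trave1_133599, described as a catalase-domain protein, measured 14.1 RPKM on PDA, 9.26 on glucose and 6.59 on poplar. Trave1_159214, which has the longest gene model of the family at 2235 bases, measured 7.69, 3.34 and 7.19 RPKM. Neither shared the order of Trave1_152668, since both had their highest value on PDA, although for Trave1_159214 the poplar to PDA ratio of 0.935 (0.610 to 1.43) did not separate these media. Trave1_133599 was 2.13-fold lower on poplar than on PDA (1.35 to 3.44), and Trave1_159214 was 2.30-fold lower on glucose than on PDA (1.34 to 4.09) with 20 against 49 reads.

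The most abundant superoxide dismutase differed less between media than the most abundant catalase, while the less abundant Trave1_144796 and Trave1_110098 differed by 2.09-fold and 1.83-fold between their highest and lowest media. Trave1_175978 measured 4086 RPKM on PDA, 3499.6 on glucose and 4196 on poplar, and ranked 25, 29 and 23 among all gene models. It made up between 92.3% and 92.6% of the family's summed RPKM in each library. Its level was 1.20-fold higher on poplar than on glucose (1.16 to 1.24), which became 1.13-fold after either scaling, outside that interval. The poplar to PDA ratio of 1.03 (0.994 to 1.06) became 0.958 after median-of-ratios scaling. On PDA and poplar its level was above that of catalase Trave1_152668, whereas on glucose it was below.

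Trave1_110098, described as mitochondrial superoxide dismutase, measured 163 RPKM on PDA, 92.1 on glucose and 169 on poplar. It was low on glucose alone, 1.77-fold below PDA (1.47 to 2.15) and 1.83-fold below poplar (1.52 to 2.22). Trave1_47252, which KEGG names a copper/zinc superoxide dismutase, was nearly even at 132, 159 and 142 RPKM. Trave1_144796, an iron/manganese type by KEGG, measured 40.4 RPKM on PDA, 38.6 on glucose and 19.3 on poplar. Here poplar was the low medium, 2.09-fold below PDA (1.50 to 2.93). The 2 other KEGG-named members were near the limit of detection: Trave1_21761 had 7, 11 and 13 reads, and Trave1_49367 had 3 reads on poplar and 0 on both other media.

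Among the peroxiredoxins, Trave1_144195 was the most abundant. This cysteine peroxiredoxin measured 357 RPKM on PDA, 811 on glucose and 641 on poplar. Like the main catalase it was lowest on PDA, and its glucose value was above its poplar value. It was 2.27-fold higher on glucose than on PDA (2.07 to 2.50), 1.80-fold higher on poplar than on PDA (1.63 to 1.98), and 1.27-fold lower on poplar than on glucose (1.17 to 1.37). Peroxiredoxin Q, Trave1_28763, was instead highest on poplar, at 181, 202 and 283 RPKM, 1.56-fold above PDA (1.35 to 1.82). Trave1_130337 and Trave1_40715, peroxiredoxins by KEGG, stayed between 6.88 and 35.6 RPKM. Trave1_135747, described as thioredoxin-like and named a peroxiredoxin by KEGG, measured 32.3, 42.7 and 50.5 RPKM.

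Glutathione peroxidase was represented by Trave1_125209, at 253 RPKM on PDA, 261 on glucose and 196 on poplar. The poplar value was the low one, 1.29-fold below PDA (1.10 to 1.52) and 1.33-fold below glucose (1.13 to 1.57). Cytochrome c peroxidase Trave1_26871, which in yeast is a mitochondrial enzyme, measured 20.3, 28.4 and 31.9 RPKM and was 1.57-fold higher on poplar than on PDA (1.14 to 2.18). The 2 remaining genes that KEGG calls cytochrome c peroxidase, Trave1_110314 and Trave1_109636, are described as partial hypothetical proteins and had 23 reads or fewer in each library.

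Thioredoxin, a thiol carrier, and glutathione reductase were both highest on glucose. Thioredoxin Trave1_33016 measured 169 RPKM on PDA, 549 on glucose and 255 on poplar. Glucose stood apart, 3.24-fold above PDA (2.70 to 3.91) and 2.15-fold above poplar (1.84 to 2.53). Glutathione reductase Trave1_36716 measured 83.1, 127 and 68.5 RPKM. Its glucose level was 1.53-fold above PDA (1.33 to 1.76) and 1.86-fold above poplar (1.60 to 2.16). Thioredoxin reductase Trave1_156841 did not share the glucose peak of thioredoxin: it measured 157, 161 and 109 RPKM, a glucose to PDA ratio of 1.03 (0.901 to 1.18). Poplar was its low medium, 1.48-fold below glucose (1.28 to 1.72).

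The 4 glutaredoxins, small carriers that use glutathione, all stayed within 1.46-fold between their highest and lowest media. Trave1_25651, the most abundant, measured 391 RPKM on PDA, 290.4 on glucose and 299.96 on poplar. Trave1_30124 measured 128, 97.3 and 94.1 RPKM and was likewise highest on PDA. Trave1_47776 measured 119, 131 and 94.5 RPKM, and Trave1_160883 measured 83.1, 122 and 100.04. These last were highest on glucose, so the family had no common order. KEGG names Trave1_30124 and Trave1_47776 monothiol glutaredoxins.

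Other thioredoxin-named members were mostly level. Trave1_35912, which KEGG also names a protein disulfide isomerase, an enzyme class that forms disulfide bonds in the secretory pathway, measured 245 RPKM on PDA, 295 on glucose and 268 on poplar. The thioredoxin-like Trave1_25585, a thioredoxin by KEGG, measured 248, 235 and 212 RPKM. Trave1_46763 measured 10.2, 8.46 and 12.0 RPKM. The exception was Trave1_150138, a thioredoxin-like gene without a KEGG name, at 71.1, 145 and 61.7 RPKM. It had the glucose peak, 2.04-fold above PDA (1.67 to 2.51) and 2.35-fold above poplar (1.90 to 2.92). Trave1_164012 and Trave1_46398, also without a KEGG name, lay between 16.3 and 28.1 RPKM.

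The KEGG transferases did not share a direction between glucose and PDA, with 4 called higher on glucose and 1 lower. Trave1_54628, the most abundant, measured 1235 RPKM on PDA, 489.6 on glucose and 528 on poplar. It was high on PDA alone, so that glucose was 2.52-fold lower (2.34 to 2.72) and poplar 2.34-fold lower (2.18 to 2.51). Several less abundant members had the opposite order. Trave1_72028 measured 17.7 RPKM on PDA, 95.2 on glucose and 41.3 on poplar, 5.38-fold higher on glucose than on PDA (3.78 to 7.83) and 2.33-fold higher on poplar than on PDA (1.58 to 3.51). Trave1_56550 measured 2.44, 31.1 and 5.46 RPKM, with 5, 60 and 11 reads, and was 12.8-fold higher on glucose than on PDA (5.18 to 40.8). Trave1_65672 had 5, 23 and 18 reads and was 4.90-fold higher on glucose than on PDA (1.82 to 16.5). Trave1_73627 measured 177, 127 and 147 RPKM. The other 4 of these genes had 8 reads or fewer in each library. Since Trave1_54628 outweighed the rest, the summed RPKM of the 9 genes was highest on PDA, at 1439 against 763 on glucose and 734 on poplar, although 4 of the 8 measured were at least 2-fold higher on glucose.

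Of the 7 other peroxidases, 4 had their lowest level on glucose. Trave1_113105, the gene spelled manganase peroxidase, measured 245 RPKM on PDA, 93.9 on glucose and 577 on poplar, 6.14-fold higher on poplar than on glucose (5.40 to 6.9998). The manganese-dependent peroxidase Trave1_131350 measured 104, 66.4 and 248 RPKM, 3.73-fold higher on poplar than on glucose (3.18 to 4.39). Trave1_43747, described only as peroxidase, measured 128 RPKM on PDA and 198 on poplar but 3.74 on glucose, where it had 11 reads. All 3 had the order poplar, PDA, glucose. Manganese peroxidases oxidise manganese ions that in turn attack lignin. The chloroperoxidase-like genes did not share that order: Trave1_24055 measured 186, 131 and 110 RPKM, and Trave1_27237 measured 90.8, 188 and 139.7. The remaining manganese-dependent peroxidase, Trave1_130766, measured 20.3, 10.3 and 20.1 RPKM, and the manganese-repressed peroxidase Trave1_133830 had 3 reads or fewer in each library. Close paralogs among these genes share sequence, and how reads shared between them were counted is not known beyond the label of unique reads, so their separate levels are uncertain.

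**Figure D3:**
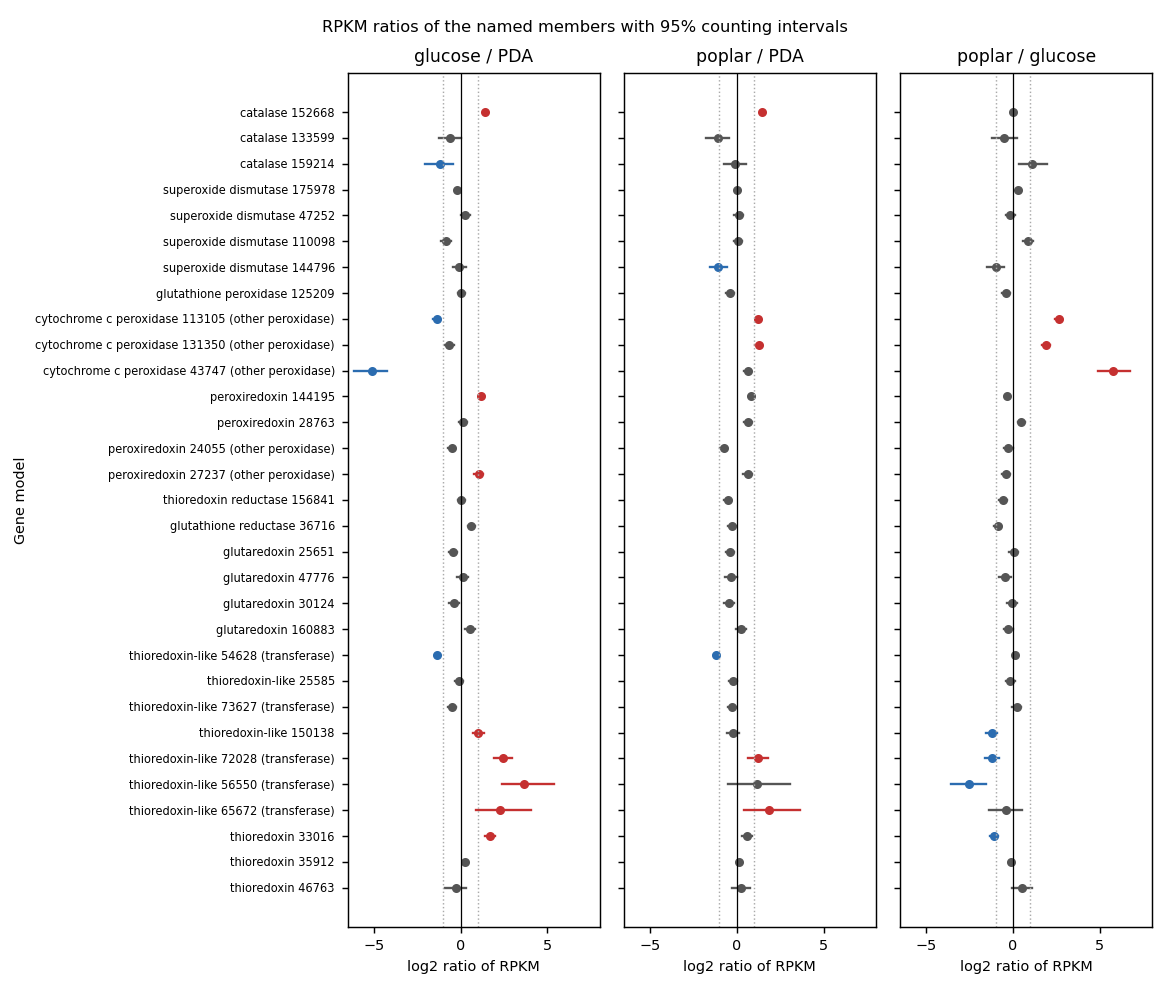
RPKM ratios on the log2 scale for the 31 members chosen by family and level or by call (not the same 31 as the named antioxidant enzymes) in each pair of libraries, with 95% exact counting intervals as horizontal lines; red and blue mark genes at least 2-fold higher or lower in RPKM plus 1, and dotted lines mark a 2-fold ratio. Catalase Trave1_152668 is red in both panels against PDA and lies near 0 between poplar and glucose, and thioredoxin Trave1_33016 is set apart by glucose.

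Across the members, a call required a 2-fold or larger ratio of RPKM plus 1, in genes that reached 1 RPKM in at least 1 of both libraries. Between glucose and PDA, 9 of 44 measured members were called higher on glucose, where 12.7% of all 10487 measured gene models were, and 4 were called lower, where 6.52% of all were. Members called in either direction made up 29.5%, against 19.2% of all gene models. Among the named antioxidant enzymes alone, 4 of 30 were called higher and 1 lower, 16.7% in all. This is near the background, but it depends on a division made after values were seen. The 4 called higher were catalase Trave1_152668, peroxiredoxin Trave1_144195, thioredoxin Trave1_33016 and the thioredoxin-like Trave1_150138. The gene called lower was catalase Trave1_159214, with a log2 ratio of −1.001. The median log2 ratio was 0.09 over the members, 0.15 over the named antioxidant enzymes and 0.01 over all gene models.

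Between poplar and PDA, 6 of 45 measured members were called higher on poplar and 3 lower, where 10.8% and 5.11% of 10506 gene models were. In either direction this was 20.0% of the members against 15.9% of all gene models. Of the 31 named antioxidant enzymes, 9.68% were called in either direction. The 2 called higher were the catalase Trave1_152668 and the 3-read gene Trave1_49367, and the 1 called lower was superoxide dismutase Trave1_144796. Catalase Trave1_133599 fell just short of a call, with a log2 ratio of −0.99. The median log2 ratio was 0.11 over the members, 0.05 over the named antioxidant enzymes and 0.09 over all gene models. The catalase of this comparison stands on the same PDA library as that with glucose, so these ratios are not separate measurements of the PDA level.

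Between poplar and glucose, 4 of 44 measured members were called higher on poplar and 5 lower, where 8.10% and 8.31% of 10636 gene models were. In either direction this was 20.5% of the members against 16.4% of all gene models. Of the 4 called higher, 3 were other peroxidases, and the fourth was Trave1_49367 with its 3 reads. Of the 5 called lower, 3 were KEGG transferases (Trave1_72028, Trave1_56550 and Trave1_121521), and the others were thioredoxin Trave1_33016 and Trave1_150138. Among the named antioxidant enzymes 9.68% were called in either direction, against 16.4% of all gene models. The division, made after values were seen, had set apart the 3 other peroxidases and 3 KEGG transferases called here. The lower share follows from that and is not a separate result. The median log2 ratio of the named antioxidant enzymes was −0.05, as it was over the members, against 0.08 over all gene models.

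**Figure D4:**
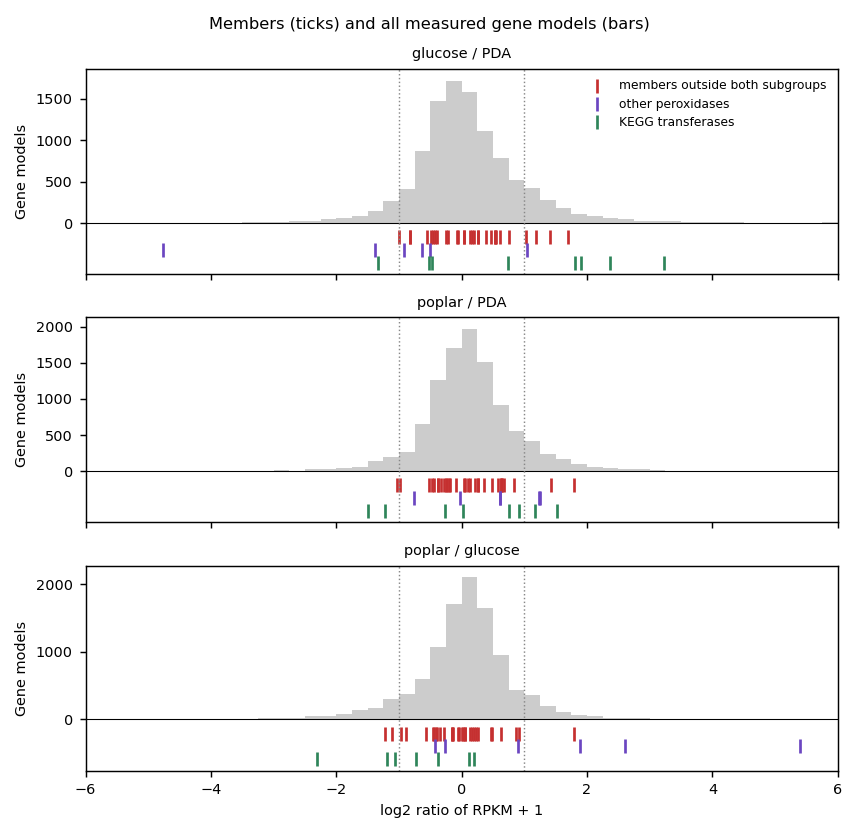
Log2 ratios of RPKM plus 1 for all measured gene models (grey bars, gene models per bin, with values beyond the axis placed in the end bins) and for the measured members (ticks, coloured by subgroup) in each pair of libraries; dotted lines mark 2-fold. Most of the named antioxidant enzymes lie between the dotted lines, and the outermost ticks belong to the other peroxidases and the KEGG transferases, except on the right of the middle panel, where Trave1_49367 with 3 reads lies outermost.

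Over all 3 comparisons, 17 of the 45 members measured in any library were called at least once, 37.8% against 30.1% of all gene models. Of these 17, 7 were among the 31 named antioxidant enzymes. That number depends on the division made after values were seen and is not a separate result. Of the 31 named antioxidant enzymes, 12 had their highest level on glucose, 9 on PDA and 10 on poplar. The counting intervals separated the highest medium from both others for 6 of the 12, 3 of the 9 and 1 of the 10. The lowest level was on PDA for 13, on glucose for 8 and on poplar for 9, Trave1_49367 being tied, with 5, 3 and 4 separated from both others. For a single 1-kb gene model, 3 reads correspond to 1.05 RPKM on PDA, 1.12 on glucose and 1.07 on poplar, so orders among the least abundant members cannot be read at this depth.

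Genes that supply glutathione and NADPH, repair oxidised methionine, offer respiration a bypass or handle metals were looked up by name outside the members. Of the 17 found, 2 of 16 measured were called higher on glucose than on PDA and 1 lower, 18.8% in all against 19.2% of all gene models. Between poplar and PDA, 3 of 17 were called higher and 0 lower, 17.6% against 15.9%. Between poplar and glucose, 4 of 17 were called higher and 1 lower, 29.4% against 16.4%. All genes called higher on poplar were under 10 RPKM in every library. They were Trave1_69531, taken up below, and Trave1_66735, Trave1_24442 and Trave1_42924. Trave1_66735, Trave1_24442 and Trave1_42924 are hypothetical proteins that KEGG calls metallothionein expression activators. The most abundant gene of that name, Trave1_23189, measured 13.8 RPKM on PDA, 14.3 on glucose and 21.6 on poplar and was not called. Its poplar ratio was 1.51 to glucose (0.998 to 2.30) and 1.56 to PDA (1.04 to 2.38). Copper chaperone Trave1_164609 measured 356, 416 and 452 RPKM and was not called either. Trave1_24442 had 6 reads on poplar and Trave1_42924 had 4, against 0 on glucose for both. The catalytic subunit of glutamate-cysteine ligase, Trave1_141697, which carries out the first step of glutathione synthesis, measured 28.8 RPKM on PDA, 72.2 on glucose and 35.3 on poplar. It had the same glucose peak as thioredoxin Trave1_33016, 2.50-fold above PDA (2.08 to 3.02) and 2.04-fold above poplar (1.72 to 2.43). Glutathione synthase Trave1_176108, which completes the tripeptide, measured 6.44, 6.62 and 5.16 RPKM. It had 28, 27 and 22 reads, covering 24.7%, 20.1% and 22.7% of its gene model. It showed no such peak over PDA, at a glucose to PDA ratio of 1.03 (0.582 to 1.81). Its glucose to poplar ratio of 1.28 (0.704 to 2.36) is too wide to tell. A gamma-glutamyltranspeptidase, Trave1_158695, an enzyme class that breaks glutathione down, measured 5.86, 15.5 and 10.3 RPKM and was 2.64-fold higher on glucose than on PDA (1.70 to 4.22). The more abundant gamma-glutamyltranspeptidase, Trave1_142672, went the other way, at 35.0, 24.9 and 25.1 RPKM, and was 1.41-fold lower on glucose than on PDA (1.11 to 1.79).

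The 3 most abundant NADPH-producing enzymes were not called in any comparison. Glucose-6-phosphate dehydrogenase Trave1_144409 measured 239 RPKM on PDA, 226 on glucose and 282 on poplar. The abundant 6-phosphogluconate dehydrogenase Trave1_42534 measured 776, 987 and 889.5 RPKM. Isocitrate dehydrogenase Trave1_31709 was lowest on glucose, at 172, 105 and 160 RPKM, 1.64-fold below PDA (1.44 to 1.87). The scarce Trave1_69531 is described as a 6-phosphogluconate dehydrogenase C-terminal domain-like protein and has no KEGG name, so its activity is not known. Another gene with that description, Trave1_122579, is a 2-dehydropantoate 2-reductase by KEGG. Trave1_69531 measured 1.90, 1.62 and 6.57 RPKM and was called higher on poplar than on both other media. Methionine sulfoxide reductase Trave1_123685, which repairs oxidised methionine, measured 156, 144 and 147 RPKM. Alternative oxidase Trave1_121765, which bypasses part of the respiratory chain, measured 20.3, 24.0 and 14.3 RPKM.

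The deposited tables also give the percent of each gene model covered by reads. Coverage was at least 90% in every library for 18 of the 47 members, among them catalase Trave1_152668, superoxide dismutase Trave1_175978, peroxiredoxin Trave1_144195 and thioredoxin Trave1_33016. Coverage of Trave1_43747 was 99% on PDA and 98% on poplar against 38% on glucose, and that of Trave1_56550 was 86% on glucose against 31% on PDA and 38% on poplar, in the order of their read counts.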

How the data were processed

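Polyadenylated RNA was enriched with oligo(dT), fragmented and copied from random hexamers for Illumina HiSeq sequencing, per the labels' protocols. The authors deposited 1 table per library. Its counts are reads that the authors assigned uniquely, and they add up to the total that each header states. Its RPKM values, deposited beside the counts, were recomputed from count, length and that total and matched. Coverage, deposited as a percent, is the part of a gene model that reads touched. Lengths were taken as coding length, because 99.4% were multiples of 3. Cufflinks 2.0.1 appears in the submitters' processing notes, with no statement of what it did. For the aligner, genome build and strandedness: not given in the sources used here. Unique assignment leaves close paralogs uncertain, and antisense or overlapping transcripts cannot be told apart.

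Gene models absent from a table were given 0 reads. For 1 gene the ratio is that of its RPKM values, and its 95% interval is exact (Clopper-Pearson, conditional on the summed reads of both libraries, scipy 1.17.1). Calls and medians used log2 ratios of RPKM with a pseudocount of 1, a minimum of 1 RPKM in either library and a 2-fold threshold. No fold is given where both libraries had 3 reads or fewer. Without molecular identifiers, PCR copies are counted as reads, so intervals understate the error. Members were assigned to families by description, then by first KEGG entry. Named were all members of families of up to 4, the 3 most abundant of larger families and any member called with at least 10 RPKM in the higher library; members and partner genes named beyond that were chosen after their values were seen. Alternatives used other pseudocounts, filters and member definitions, and scaling by edgeR 4.0.16 (TMM) or DESeq2 1.42.0 (median of ratios). The procedure was tested on simulated data. The members and lists were chosen with earlier results of these data known.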

Additional observations from a re-analysis of the deposited data

How the results depend on the processing

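With 1 library per medium, no replicate could be left out, and no paired analysis was possible because each medium has 1 sample. Scaling by median of ratios or TMM moved the median of all gene models by under 0.1 on the log2 scale. Counting both scalings, it left 178 of 186 recomputed ratios of named members inside their counting interval. Each scaling is 1 factor per library, and shifts this small leave an interval only where it is narrow. They cannot reverse a 2-fold call, and the direction of 0 called ratios changed. The other 8 ratios were the poplar ratios of catalase Trave1_152668 and superoxide dismutase Trave1_175978. For that catalase the poplar ratio became 2.50 and 2.51 against PDA, and 0.948 against glucose, where 1.01 had been on the other side of 1.

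With descriptions alone, members called higher went from 4 to 0 between poplar and glucose and from 6 to 3 between poplar and PDA, and those called lower between glucose and PDA from 4 to 2. Without the other peroxidases and KEGG transferases, an alternative chosen after seeing the data, counts higher and lower became 1 and 2 for poplar against glucose, 2 and 1 for poplar against PDA, and 4 and 1 for glucose against PDA. With a pseudocount of 5, 1 member instead of 3 was called lower on poplar than on PDA.

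A shift of over 0.05 in a median log2 ratio is given as a change, a tolerance set after seeing the data. The median log2 ratio of the members between poplar and glucose, −0.05, became −0.13 under either scaling and −0.14 with descriptions alone. Between poplar and PDA, 0.11 became 0.048 without a filter, 0.043 at 10 RPKM or more, 0.01 under either scaling (0.0064 and 0.010), 0.016 with descriptions alone and 0.048 without the other peroxidases and transferases. Between glucose and PDA, 0.09 became 0.15 without these.

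The log2 ratio of summed RPKM was 0.09 between poplar and glucose. It became 0.0036 by median of ratios, 0.0038 by TMM, 0.013 with descriptions alone, 0.0060 without the other peroxidases and transferases, and 0.024 without Trave1_152668 and Trave1_175978, an exclusion also chosen after seeing the data. Between poplar and PDA, 0.30 became 0.20 under both scalings, 0.27 with descriptions alone, 0.39 without the other peroxidases and transferases, and 0.0081 without these abundant genes. Between glucose and PDA, 0.21 became 0.25, 0.39 and −0.016 in the last 3 settings, the last being a change of sign.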
